A study of Mus musculus with 96 samples.

Results

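Myc and 32 genes of ribosome biogenesis were followed through the committed progenitor stages of fetal red cell formation. The genes were found by their symbols among the 49466 genes of a single-cell count table, and all 33 were present, each under 1 identifier. They comprised Myc, 2 abundant nucleolar proteins, 2 subunits of RNA polymerase I, 3 proteins of the box C/D and 5 of the H/ACA ribonucleoproteins and their assembly, and 10 assembly factors for each ribosomal subunit. Genes entered by name and role, without a threshold on any measured value, but the set was chosen with earlier results of these data known.

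The cells came from livers of C57/Bl6J mouse embryos at day 14.5, and were sorted 1 per well into a 96-well plate for Smart-seq2, which makes full-length cDNA from single cells. Cells carrying CD3e, CD45R, Ly-6G, CD11b, Ter119, Sca-1, CD16/32 or CD41 had been removed with beads, and Kit, CD71 and CD24 were stained for the sort. In order of maturation, the 4 gates of 24 wells were BFUE (burst-forming units, the earlier progenitor), Intermediate_25-35 and Intermediate_50-60 (named for the percentage of CD71/CD24 expression) and CFUE (colony-forming units, the later progenitor). BFUE wells were further divided at 100 CPM of Cd34, where CPM is a gene's reads per 1000000 reads of the well or of the summed wells. The resulting classes of 8 Cd34-high and 15 Cd34-low BFUE cells were defined from the data and are not groups of the study. No mutation or treatment is stated for any group, and the labels name no animal. Each gate therefore counts as 1 sample, differences between gates carry no check by replicates, and no p-value was computed.

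The 91 wells with 50000 or more reads held between 947458 and 3785903 reads, and 5 wells of 10596 to 16644 reads were left out. Each gate filled 3 plate columns, so gate and plate column cannot be told apart, but every gate spans the upper (A to D) and the lower (E to H) plate rows, and values in each are given where they differ. The Cd34-high cells stood apart from the rest of the BFUE gate. Gata1, the erythroid master regulator, was at 12.7 CPM in Cd34-high and 411 CPM in Cd34-low BFUE cells, and the myeloid enzyme gene Mpo was at 2366 CPM and 13.6 CPM in the same order. Neutrophil and monocyte markers summed to a median of 2190 and 25.6 CPM per cell. Of these 9 genes, Elane, Ly6c2, S100a8 and S100a9 were at 0 in Cd34-high cells. For 7 lymphoid markers (Dntt and Cd3e at 0 in Cd34-high cells) the medians were 845 and 1.25 CPM. For 7 endothelial and stromal ones (4 at 0 in Cd34-high cells) they were 201 and 1.32 CPM. Macrophage markers (7 genes, 3 at 0) went the other way, at 3.95 and 38.2 CPM. Erythroid markers (10 genes, none at 0 in either class) summed to between 13.4 and 293 CPM per Cd34-high cell and between 838 and 2165 CPM per Cd34-low cell. Stem and multipotent markers (9 genes without Cd34, which made the split, with Spink2 at 0 in both classes and Mecom also at 0 in Cd34-low cells) summed to between 844 and 1728 CPM per Cd34-high cell, with a median of 1113, and between 4.11 and 1617 CPM per Cd34-low cell, with a median of 104. These ranges overlapped. The CFUE cell of well D10 also stood apart, with the fewest reads and genes of all kept wells (947458 and 6361) 7 reads of Myc and the highest mitochondrial share, 5.14%. The CFUE cell of well A10 was next in both respects, with 7422 genes and a mitochondrial share of 4.21%. Counts of CFUE that these wells move, and several of its correlations, are given with and without them. Both wells lie in the upper plate rows, so CFUE values of the upper rows include them.

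As background, ribosomes are built in the nucleolus, where RNA polymerase I transcribes the ribosomal RNA precursor. Small nucleolar ribonucleoproteins modify that precursor, box C/D particles by methylation and H/ACA particles by pseudouridylation, and a long series of assembly factors cuts, folds and exports the small and large subunits. Myc is a transcription factor that, paired with Max, binds E-box sequences at many of these genes and is known to raise ribosome production in growing cells. Red cell precursors make large amounts of globin and are sensitive to ribosome defects, as in Diamond-Blackfan anaemia.

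The canonical E-box that Myc-Max dimers bind is CACGTG, which reads the same on both strands. It was searched for in RefSeq promoter windows (GRCm38.p6, 250 bases before to 50 bases after each start), which matched 27 of the 33 genes. The other 6 were Myc, Npm1, Fbl, Rrp12, Bop1 and Rrs1. Of the 27 genes, 7 (25.9%) held the motif. The sequences below are those 7 matches with up to 12 bases on either side, written 5′ to 3′ on the gene's strand with the motif in capitals, and are shown because they are the listed genes' matches to the letters that Myc-Max binds.
Nop2: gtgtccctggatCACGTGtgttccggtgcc
Wdr43: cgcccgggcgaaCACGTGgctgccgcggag
Tsr1: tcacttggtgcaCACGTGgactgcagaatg
Ltv1: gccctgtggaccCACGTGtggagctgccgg
Utp20: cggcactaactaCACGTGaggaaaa
Pes1: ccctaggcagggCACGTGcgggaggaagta
Mybbp1a: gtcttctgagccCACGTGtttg

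In the Nop2 promoter the motif began 60 bases upstream of the start (window chr6:125131811-125131840, plus strand). In the other 6 genes it began downstream of it, at base 3 of the transcript in Pes1 (chr11:3963965-3963994, plus strand) and base 41 in Mybbp1a (chr11:72441355-72441376, plus strand). The remaining windows were chr17:71616220-71616249 for Wdr43 and chr11:74898092-74898121 for Tsr1, both on the plus strand. Ltv1 (chr10:13193092-13193121) and Utp20 (chr10:88826765-88826789) were on the minus strand. For comparison, 16 of 100 other ribosome biogenesis genes held the motif, as did 13.1% of the 6913 matched genes at 10 CPM or more in any gate and 7.15% of all 32851 promoter windows. A match is a description of these letters only.

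The 32 genes other than Myc took up 0.882% of all reads in Cd34-high BFUE cells, 1.45% in Cd34-low BFUE cells, 1.66% in Intermediate_25-35, 1.51% in Intermediate_50-60 and 1.33% in CFUE. Their share was thus highest in the first intermediate gate and lowest in the Cd34-high cells. Myc itself (chromosome 15, 61985391 to 61990374, plus strand, GRCm38) was at 791 CPM in Cd34-high BFUE cells, 908 in Cd34-low BFUE cells, 705 in Intermediate_25-35, 614 in Intermediate_50-60 and 404 in CFUE. From Cd34-low BFUE cells onward the Myc level was lower at each later gate, while the summed level of the ribosome biogenesis genes was higher at the first step and lower at the next ones. Per kilobase of exon, Npm1 had the highest level of the 33 in every class and Utp20 the lowest. In CFUE and Cd34-low BFUE cells the CPM per kilobase were 1172 and 1047 for Npm1, 149 and 334 for Myc, and 4.25 and 4.61 for Utp20.

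**Figure D1:**
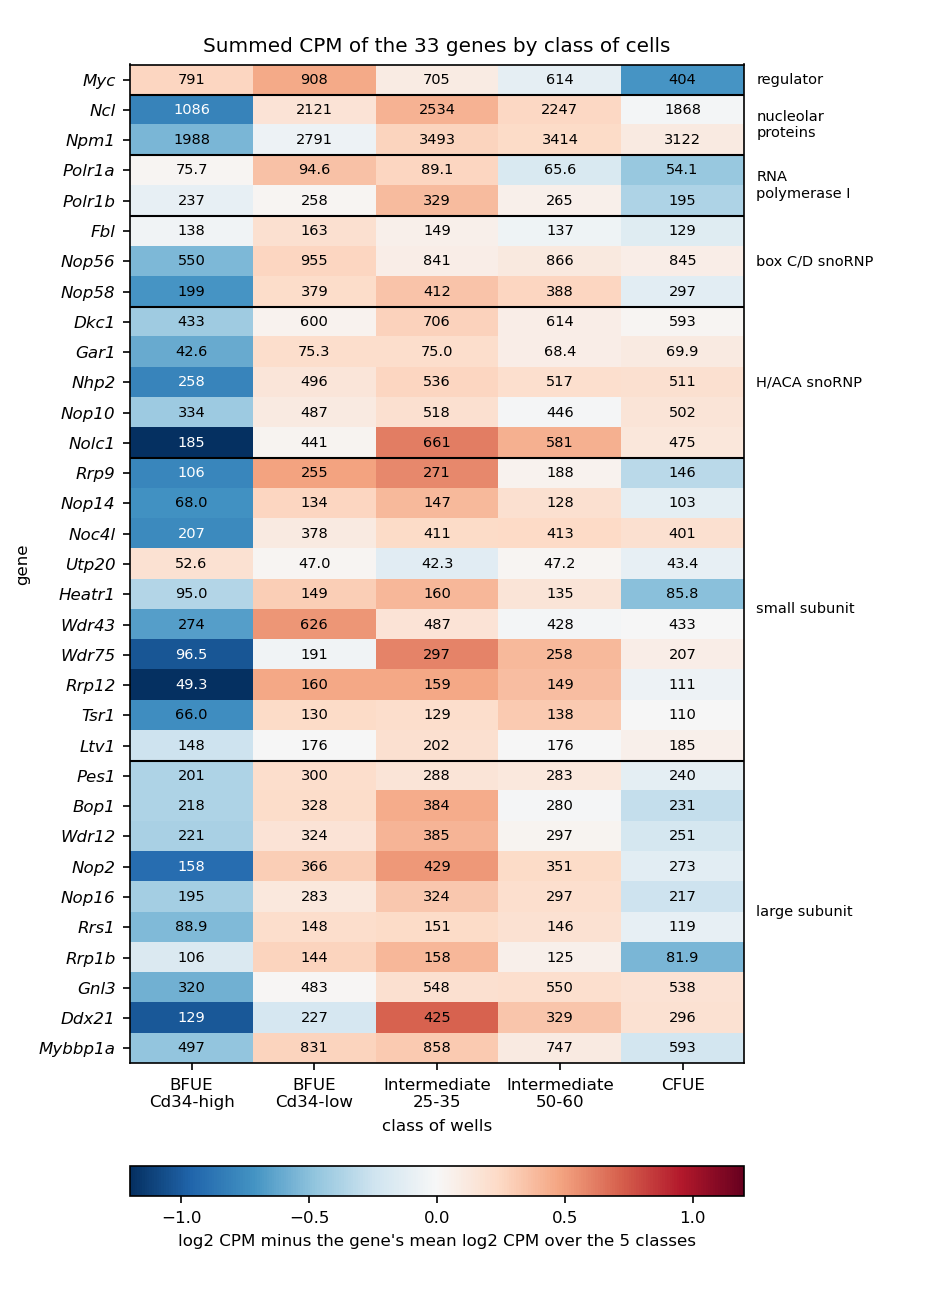
Summed CPM of each of the 33 genes (rows, grouped by role) in the 5 classes of wells (columns), printed in each cell; the colour is the log2 CPM minus the gene's own mean over the 5 classes. Ncl, for example, is at 1086 CPM in Cd34-high BFUE cells and 2534 CPM in Intermediate_25-35, and most genes share the pale or blue first column.

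Myc per cell overlapped between all classes. It ranged from 335 to 1266 CPM with a median of 852 in the Cd34-high BFUE cells and from 159 to 2141 with a median of 785 in the Cd34-low ones. In Intermediate_25-35 it ranged from 212 to 1607 CPM (median 605), in Intermediate_50-60 from 219 to 1229 (median 573) and in CFUE from 7.39 to 953 (median 330). The median was lowest in CFUE, yet the highest CFUE cell was above the medians of every other class.

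In CFUE against Cd34-low BFUE cells, the comparison of the ends of the erythroid series, Myc was at a ratio of 0.445 (exact 95% interval of counting error 0.436 to 0.455), that is 2.25-fold lower in CFUE. All intervals here cover counting error alone, since the reads carry no molecular identifiers and are not independent molecules. On the log2 scale the ratio was -1.17 with all wells, -1.48 in the upper plate rows, -0.95 in the lower ones and -1.13 without CFUE well D10. Against all BFUE cells the CFUE ratio was 0.464.

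A gene was counted as different at a ratio of 1.5-fold or more, among genes with 10 CPM or more on either side, which all 33 met.

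Among Myc's relatives and partners, Mycn, a paralogue usually found in early progenitors, was at 207 CPM in Cd34-high and 11 CPM in Cd34-low BFUE cells, a ratio of 18.8 (interval 16.7 to 21.4). It was singled out after its values were seen. Per cell it ranged from 0 to 787 CPM in the Cd34-high cells and from 0 to 107 CPM in the Cd34-low ones, so the classes overlapped, and in the 3 later gates no cell exceeded 1.40 CPM. Max, the obligate partner of Myc, was at 9.96 CPM in CFUE and 20.2 CPM in Cd34-low BFUE cells. Mga, a Max-binding repressor, was at 10.1 CPM in CFUE and 25.9 CPM in Cd34-low BFUE cells. Of the 8 measured genes of this network, 1 was at least 1.5-fold higher in CFUE and 5 were lower, where 13.6% of 8246 measured genes were higher and 24.9% lower, and the median log2 ratio was -0.86.

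In CFUE against Cd34-low BFUE cells, 0 of the 33 were higher, where 13.6% of all measured genes were, and 5 were lower, where 24.9% were. At this minimum of 10 CPM the share of the listed genes beyond 1.5-fold was thus under that of all genes. With a minimum of 50 CPM, which 32 of them met, 11.5% of all genes were higher and 16.8% lower. The same 5 genes were still past the limit, so the share of lower genes was then close to that of all genes. The median log2 ratio of the 33 was -0.33 against -0.11 for all measured genes, and 24 of 33 lay below 0. TMM scaling moved the median of all genes to 0.01 and that of the 33 to -0.22, which left the distance between them as it was, and moved the shares of all genes beyond 1.5-fold to 17.3% higher and 20.9% lower. In the upper plate rows the median of the 33 was -0.18 against -0.12 for all genes, and in the lower ones -0.30 against -0.09.

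Besides Myc, the lower genes were Polr1a, Rrp9, Heatr1 and Rrp1b. Polr1a, the largest subunit of RNA polymerase I, was at 54.1 CPM in CFUE and 94.6 CPM in Cd34-low BFUE cells (ratio 0.572, interval 0.539 to 0.607). Heatr1, a factor of the small subunit processome that also bears on polymerase I transcription, was at 85.8 and 149 CPM in the same order (0.575, 0.549 to 0.604). Rrp1b, a nucleolar protein of large subunit assembly, was at 81.9 CPM in CFUE and 144 CPM in Cd34-low BFUE cells (0.569, 0.542 to 0.597). In the upper plate rows Rrp1b was within the limit, at a log2 ratio of -0.57, and in the lower ones at -1.05. Polr1a and Heatr1 were past it in both. Without wells A10 and D10 the count of lower genes was still 5. All 4 genes had wells that overlapped between CFUE and Cd34-low BFUE.

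Rrp9, a protein of the ribonucleoprotein that guides early cleavage of the precursor, was at 146 CPM in CFUE and 255 CPM in Cd34-low BFUE cells (ratio 0.573, interval 0.552 to 0.594). Its log2 ratio was -0.21 in the upper plate rows and -1.37 in the lower ones, so its count as lower rested on cells of the lower rows. Per cell Rrp9 ranged from 0 to 340 CPM in CFUE (median 131) and from 124 to 546 CPM in Cd34-low BFUE (median 235). At the other end Ddx21, an RNA helicase of the nucleolus (chromosome 10, 62580251 to 62602281, minus strand), was at 296 CPM in CFUE and 227 CPM in Cd34-low BFUE cells, within the 1.5-fold limit, with a log2 ratio of 0.94 in the upper plate rows and -0.18 in the lower ones. Against all BFUE cells, which include the Cd34-high ones at 129 CPM, it was the 1 gene past the limit upward (ratio 1.51), where 13.7% of all measured genes were higher, and its log2 ratio was 1.08 in the upper plate rows and 0.10 in the lower ones. In that comparison 4 of the 33 were lower (Myc, Polr1a, Heatr1 and Rrp1b), where 29.6% of all measured genes were, and 3 without well D10, when Heatr1 was within the limit. The median log2 ratio of the 33 was -0.13 against -0.14 for all genes, but the plate rows differed. In the upper rows it was 0.06 against -0.15 for all genes, and in the lower ones -0.25 against -0.13. With a minimum of 50 CPM it was -0.13 against -0.01.

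The roles differed in their values between CFUE and Cd34-low BFUE cells. The 5 H/ACA genes had a median log2 ratio of 0.04 and none was past 1.5-fold, with Dkc1, the pseudouridine synthase, at 593 and 600 CPM and Nhp2 at 511 and 496 CPM. The 2 abundant nucleolar proteins went opposite ways by small amounts. Ncl (nucleolin) was at 1868 CPM in CFUE and 2121 CPM in Cd34-low BFUE, and Npm1 (nucleophosmin) at 3122 and 2791 CPM. The log2 ratio of Npm1 was 0.49 in the upper plate rows and -0.18 in the lower ones. Npm1 has processed copies in the genome, so its count may miss or gain reads. The large subunit factors had a median of -0.38, the small subunit factors -0.31 and the 3 box C/D genes -0.34, with Fbl, the methyltransferase, at 129 CPM in CFUE and 163 CPM in Cd34-low BFUE cells.

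**Figure D2:**
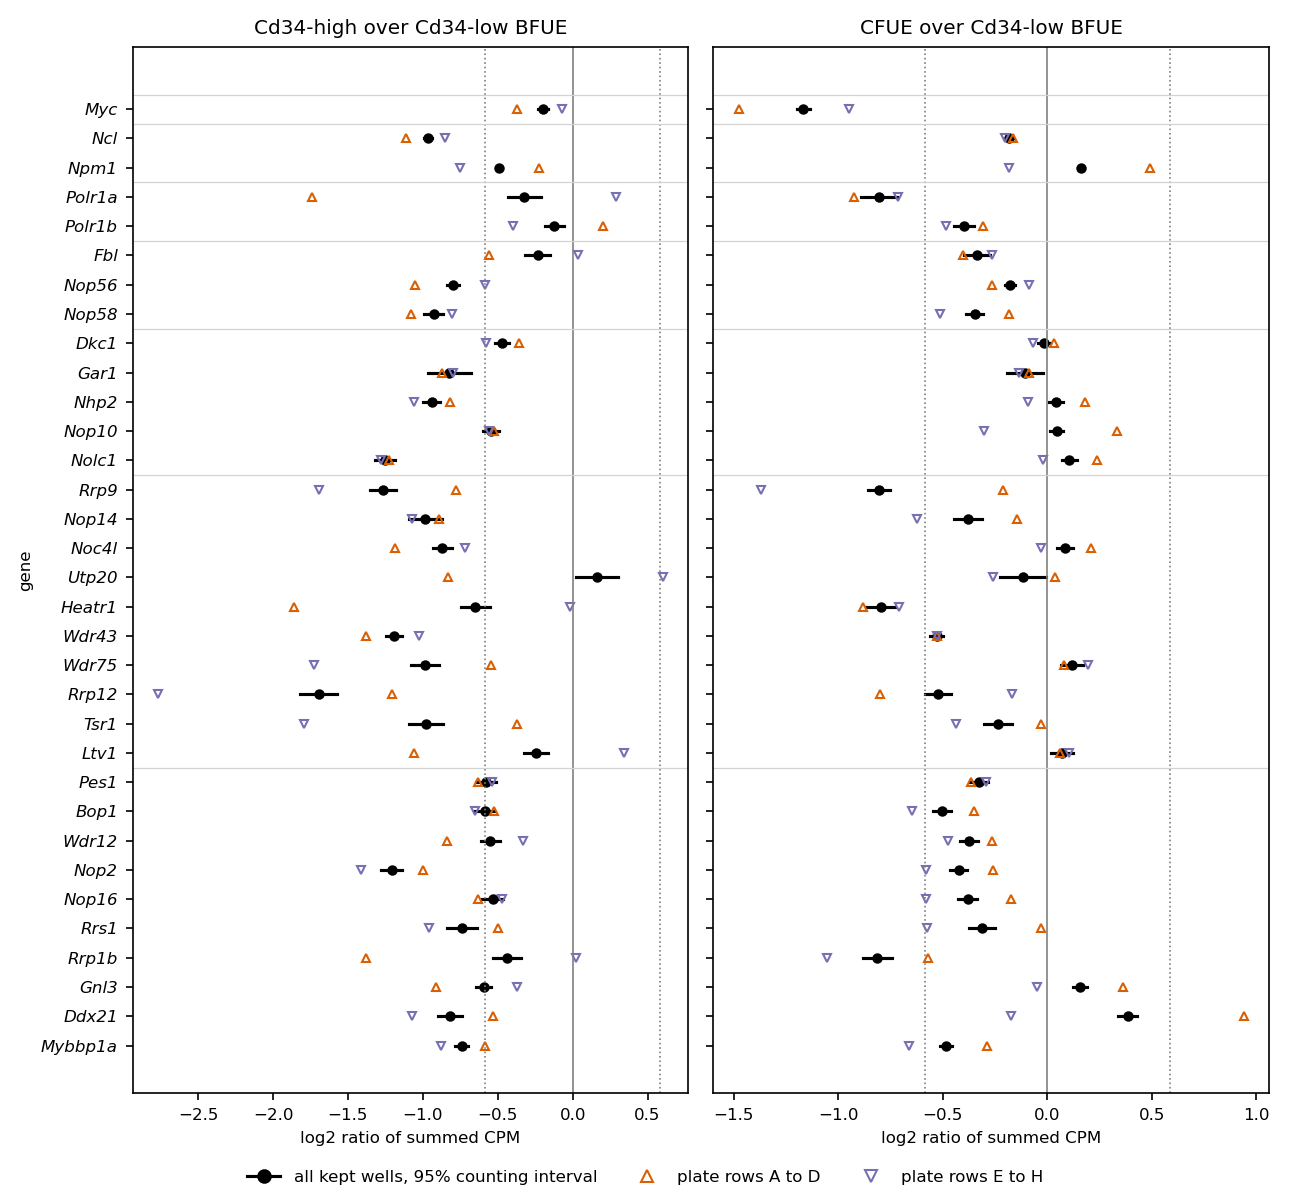
Log2 ratio of summed CPM for each gene (rows, grouped by role) in Cd34-high over Cd34-low BFUE cells (left) and CFUE over Cd34-low BFUE cells (right); black points and bars are all kept wells with 95% counting intervals, open triangles the same in the upper plate rows, A to D (pointing up), or the lower ones, E to H (pointing down), and dotted lines mark 1.5-fold. In the left panel 20 genes lie at or past the lower line, and in the right panel 5 do; the triangles lie much farther apart than the counting intervals for genes such as Rrp9.

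The steps between neighbouring gates were smaller. In Intermediate_25-35 against Cd34-low BFUE cells, 2 of the 33 were at least 1.5-fold higher, where 9.54% of 8163 measured genes were, and 0 were lower, where 17.7% were. The median log2 ratio was 0.12 against -0.05 for all genes, and 23 of 33 lay above 0. The 2 higher genes were Ddx21, at 425 CPM in Intermediate_25-35 and 227 CPM in Cd34-low BFUE (ratio 1.87, interval 1.82 to 1.93), and Wdr75, a factor of the small subunit processome, at 297 and 191 CPM in the same order (1.55). Per cell Ddx21 ranged from 112 to 698 CPM (median 407) in Intermediate_25-35 and from 88.0 to 462 CPM (median 205) in Cd34-low BFUE. The ranges overlapped for both genes, and each was above 0 on the log2 scale in the upper plate rows (0.99 for Ddx21, 0.49 for Wdr75, which is within the limit) and in the lower ones (0.83 for Ddx21, 0.82 for Wdr75). Nolc1, a chaperone of nucleolar ribonucleoproteins, was at 661 CPM in Intermediate_25-35 and 441 CPM in Cd34-low BFUE, just inside the limit.

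In Intermediate_50-60 against Intermediate_25-35, 0 of the 33 passed 1.5-fold in either direction, where 7.34% of 7807 measured genes were higher and 9.27% lower. Even so 28 of 33 lay below 0, at a median of -0.19 against -0.02 for all genes. In CFUE against Intermediate_50-60, 0 were higher, where 7.98% of 7743 were, and 3 were lower, where 9.70% were. These 3 were Myc (404 CPM in CFUE and 614 in Intermediate_50-60), Heatr1 (85.8 and 135 CPM) and Rrp1b (81.9 and 125 CPM), all close to the limit, and the count was 1 without CFUE well D10 and 0 without wells A10 and D10. The median was -0.27 against -0.01 for all genes, with 29 of 33 below 0. It was -0.24 without well D10, -0.19 without A10 and D10, -0.09 in the upper plate rows and -0.33 in the lower ones. Across these 2 steps few of the 33 were past 1.5-fold, while most of their log2 ratios lay a little below 0. With a minimum of 50 CPM, which 32 of them met, 3.31% of all genes were higher and 3.96% lower in the first of these steps. In the second, 3.94% were higher and 3.71% lower, and the same 3 genes were still past the limit.

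The widest difference lay inside the BFUE gate. In Cd34-high against Cd34-low BFUE cells, 20 of the 33 were at least 1.5-fold lower, where 25.4% of 9224 measured genes were, and 0 were higher, where 30.4% were. The median log2 ratio was -0.74 against 0.03 for all genes, and 32 of 33 lay below 0. It was -0.83 in the upper plate rows and -0.72 in the lower ones, and all 20 had the same sign in both. Of those 20, 15 were past 1.5-fold within the upper rows and 17 within the lower ones. These classes differ in lineage markers as given above and in cell cycle genes, and the part of either in these ratios was not tested. Among 20 listed genes of G2 and M phase, Cd34-high cells had 2 higher and 13 lower, where 30.4% and 25.4% of all measured genes were. Among 20 of S phase they had 0 higher and 4 lower, and this lower count was under the share of all genes. Per cell, however, the mean of log2(CPM + 10) over the S phase genes had a median of 6.96 in Cd34-high and 7.91 in Cd34-low cells. The Cd34-high cells of wells B1 (8.98) and E3 (8.63) were high. The other Cd34-high cells lay at 7.31 or lower, below every Cd34-low cell (lowest 7.44). Reads and genes per cell were close, with medians of 1461694 reads and 9226 genes in Cd34-high and 1594700 reads and 9567 genes in Cd34-low cells.

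Myc was not among the 20, at a log2 ratio of -0.20 (ratio 0.872, interval 0.851 to 0.893). In cells with much Cd34, Myc was therefore near its level in Cd34-low cells while most ribosome biogenesis genes were lower. By role, 8 of 10 small subunit factors, 6 of 10 large subunit factors, 3 of 5 H/ACA genes and 2 of 3 box C/D genes were lower. Of all measured genes 25.4% were, and groups of so few genes do not rank the roles. Neither subunit of RNA polymerase I was past the limit, with Polr1b at 237 CPM in Cd34-high and 258 CPM in Cd34-low BFUE cells. The log2 ratio of Polr1a was -0.32 with all wells, -1.74 in the upper plate rows and 0.29 in the lower ones.

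Among small subunit factors, Rrp9 was at 106 CPM in Cd34-high and 255 CPM in Cd34-low BFUE cells (ratio 0.417, interval 0.392 to 0.442), and Nop14, Noc4l, Wdr75 and Tsr1 were at ratios between 0.505 and 0.547. Rrp12, which serves export and maturation of the subunit precursor, had the lowest ratio of the 33. It was at 49.3 CPM in Cd34-high and 160 CPM in Cd34-low BFUE cells (ratio 0.309, interval 0.283 to 0.337). Per cell Rrp12 ranged from 0 to 186 CPM in the Cd34-high cells (median 20.5) and from 32.1 to 370 CPM in the Cd34-low ones (median 134). The ranges overlapped, and 1 Cd34-high cell held 43.4% of that class's reads. Wdr43, another processome factor, was at 274 and 626 CPM in the same order (0.438, 0.422 to 0.455). Heatr1, at 95 CPM in Cd34-high and 149 CPM in Cd34-low cells, had 40.1% of its Cd34-high reads in 1 cell, and its log2 ratio was -1.86 in the upper plate rows and -0.02 in the lower ones. Utp20, also of the processome, was the 1 gene above 0, at 52.6 CPM in Cd34-high and 47.0 CPM in Cd34-low cells, and without the well with most of its reads in each class its log2 ratio was -0.40. Reads of Tsr1 overlap the opposite gene Srr over 32.3% of its exon bases, and the strand setting of the counting is not given in the sources used here.

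Among ribonucleoprotein genes, Nop56 (chromosome 2, 130274430 to 130279313, plus strand), a core protein of box C/D particles, was the 1 gene of the 33 whose cells did not overlap between the classes, where 0.271% of measured genes had every Cd34-high cell below every Cd34-low cell. It ranged from 340 to 728 CPM (median 563) in Cd34-high and from 775 to 1196 CPM (median 925) in Cd34-low BFUE cells. The summed ratio of Nop56 was 0.575 (interval 0.560 to 0.591). Nolc1 was at 185 CPM in Cd34-high and 441 CPM in Cd34-low cells (0.420, 0.401 to 0.440), and per cell it ranged from 76.4 to 303 CPM in Cd34-high and from 272 to 557 CPM in Cd34-low cells. Nop58, Gar1 and Nhp2, structural proteins of the same particles, were at ratios of 0.526, 0.565 and 0.520. Fbl and Dkc1, the catalytic proteins of the box C/D and H/ACA particles, were within the limit, Fbl at 138 and 163 CPM and Dkc1 at 433 and 600 CPM.

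Among large subunit factors, Nop2, a ribosomal RNA methyltransferase whose promoter holds the upstream E-box above, was at 158 CPM in Cd34-high and 366 CPM in Cd34-low BFUE cells (ratio 0.433, interval 0.412 to 0.454). Per cell it ranged from 97.6 to 222 CPM (median 163) in Cd34-high and from 174 to 635 CPM (median 395) in Cd34-low cells. Pes1, Bop1 and Wdr12, which form the complex needed for large subunit processing, were at log2 ratios of -0.58, -0.59 and -0.55, with Bop1 just past the limit at 218 CPM in Cd34-high and 328 CPM in Cd34-low cells. Rrs1, Gnl3 (nucleostemin), Ddx21 and Mybbp1a, a nucleolar Myb-binding protein, were at ratios of 0.600, 0.662, 0.567 and 0.598. Ncl was at 1086 CPM in Cd34-high and 2121 CPM in Cd34-low cells (0.512, 0.502 to 0.522), with 487 to 2086 CPM per Cd34-high cell and 1044 to 2812 CPM per Cd34-low cell. The 7 genes with an E-box in the promoter window had a median log2 ratio of -0.74 in this comparison and the 20 matched genes without it -0.81. In CFUE against Cd34-low BFUE cells the medians were -0.33 with and -0.18 without the motif. The 2 sets of genes overlapped in range in both comparisons.

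Other genes of the pathway, comprised 5 lists of 121 symbols with 111 measured. In Cd34-high against Cd34-low BFUE cells, 3 of the 111 were at least 1.5-fold higher and 53 lower, where 30.4% and 25.4% of all measured genes were, and their median log2 ratio was -0.54. In CFUE against Cd34-low BFUE cells 1 was higher and 15 were lower, where 13.6% and 24.9% of all measured genes were. Both counts were under the share of all genes at 10 CPM or more, a share that was smaller with a minimum of 50 CPM (11.5% and 16.8%). The median was -0.16 over the 111 genes, and by list it lay between -0.28 (small subunit) and 0.06 (RNA exosome). The lowest of them in CFUE were Dhx37, a helicase of the small subunit processome, at 59.3 CPM in CFUE and 127 CPM in Cd34-low BFUE (ratio 0.466, interval 0.441 to 0.492), and Nat10, which acetylates small subunit RNA, at 144 and 279 CPM (0.517, 0.499 to 0.536). Emg1, a small subunit methyltransferase, was at 471 CPM in CFUE and 346 CPM in Cd34-low BFUE cells. Mphosph6, which binds the RNA exosome, was the 1 higher gene, at 104 and 66.1 CPM.

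Cytosolic ribosomal protein genes, the structural counterpart, lay within the limit. Of 24 listed, 0 passed 1.5-fold in any of the 6 comparisons, and their median log2 ratio was 0.12 in CFUE against Cd34-low BFUE cells and -0.07 in Cd34-high against Cd34-low BFUE cells. Other growth genes linked to Myc outside the ribosome numbered 22. Against Cd34-low BFUE cells, the Cd34-high ones had 0 of them higher and 14 lower (median log2 ratio -0.73), where 30.4% and 25.4% of all measured genes were. CFUE had 3 higher and 3 lower (-0.05), where 13.6% and 24.9% were. Cad, the enzyme that starts pyrimidine synthesis, was at 222 CPM in CFUE and 380 CPM in Cd34-low BFUE cells, and Prdx3, a mitochondrial peroxidase, at 760 and 366 CPM.

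To follow single cells, the level of the set was summarised as the mean of log2(CPM + 10) over the 32 genes other than Myc, called the ribosome biogenesis score here. It ranged from 6.64 to 7.90 (median 7.37) in Cd34-high BFUE cells and from 7.61 to 8.42 (median 8.18) in Cd34-low ones. It ranged from 8.07 to 8.55 (8.27) in Intermediate_25-35, from 7.63 to 8.41 (8.14) in Intermediate_50-60 and from 5.61 to 8.50 (7.98) in CFUE. Of the 8 Cd34-high cells 7 lay below all 15 Cd34-low cells. The exception was the cell of well E3. The spread was narrowest in Intermediate_25-35 (SD 0.14 over 21 cells) and widest in CFUE (SD 0.66 over 23 cells), where 7 cells lay below every Intermediate_50-60 cell and 1 above every one. Without well D10 the CFUE SD was 0.48 and 6 cells lay below, and without A10 and D10 it was 0.40 and 5 did. In CFUE well D10 the score was the lowest of all cells at 5.61, but 4 of the 32 genes (Nop58, Nhp2, Nop10 and Ltv1) were at their highest CFUE value there, Nop10 at 3290 CPM.

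**Figure D3:**
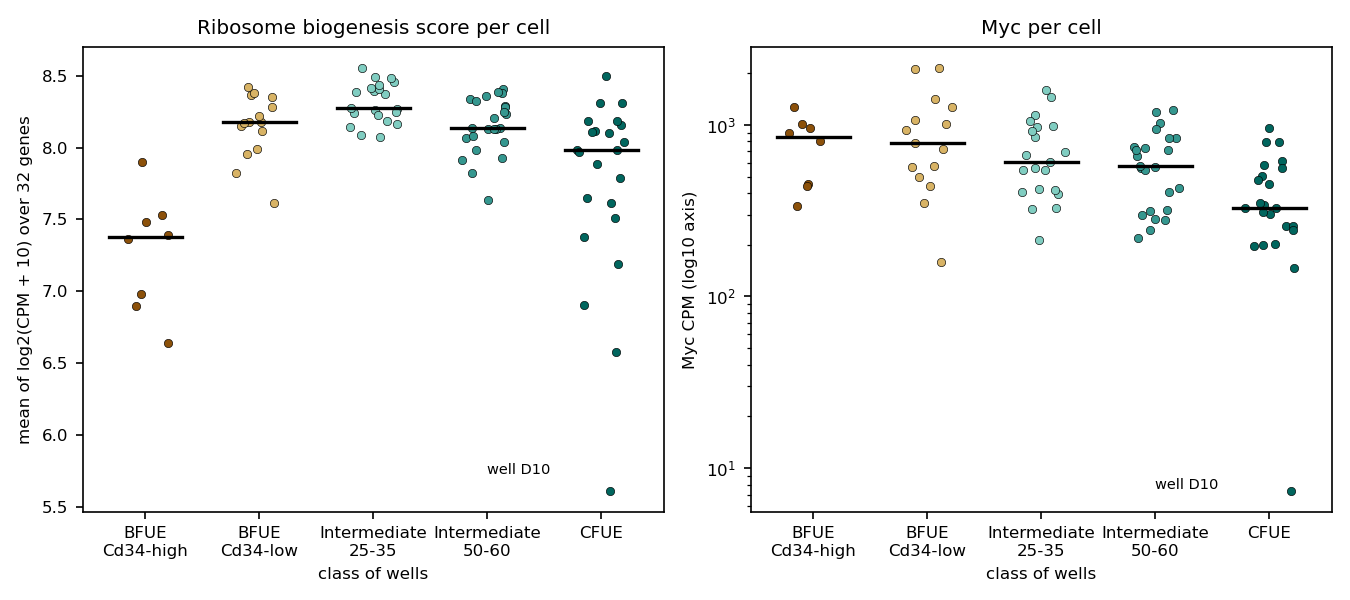
The ribosome biogenesis score (left, mean of log2(CPM + 10) over 32 genes) and Myc CPM (right, log10 axis) of each kept cell by class; points are cells and bars are medians. The Cd34-high BFUE cells sit low in the left panel (median 7.37 against 8.18 in Cd34-low cells) but not in the right one (852 against 785 CPM), and well D10 is the lowest CFUE cell in both.

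The score was then set against Myc within each gate, as a description across cells that share a plate and differ in depth. Spearman's rho was -0.14 over 15 Cd34-low BFUE cells, 0.13 over 21 Intermediate_25-35 cells, -0.11 over 24 Intermediate_50-60 cells and 0.27 over 23 CFUE cells (0.17 without well D10, 0.12 without A10 and D10), with a mean of 0.04. In the upper plate rows it was -0.54, -0.23, -0.55 and 0.37 over 7, 12, 12 and 11 cells of these gates. Wells A10 and D10 are among those 11 CFUE cells, and the upper-row value without them was not computed. In the lower plate rows rho was 0.17, 0.48, 0.27 and 0.42 over 8, 9, 12 and 12 cells. The sign thus differed between the plate rows in 3 of the 4 gates, and no relation between the score and Myc held across them. Among the 8 Cd34-high cells rho was -0.10.

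**Figure D4:**
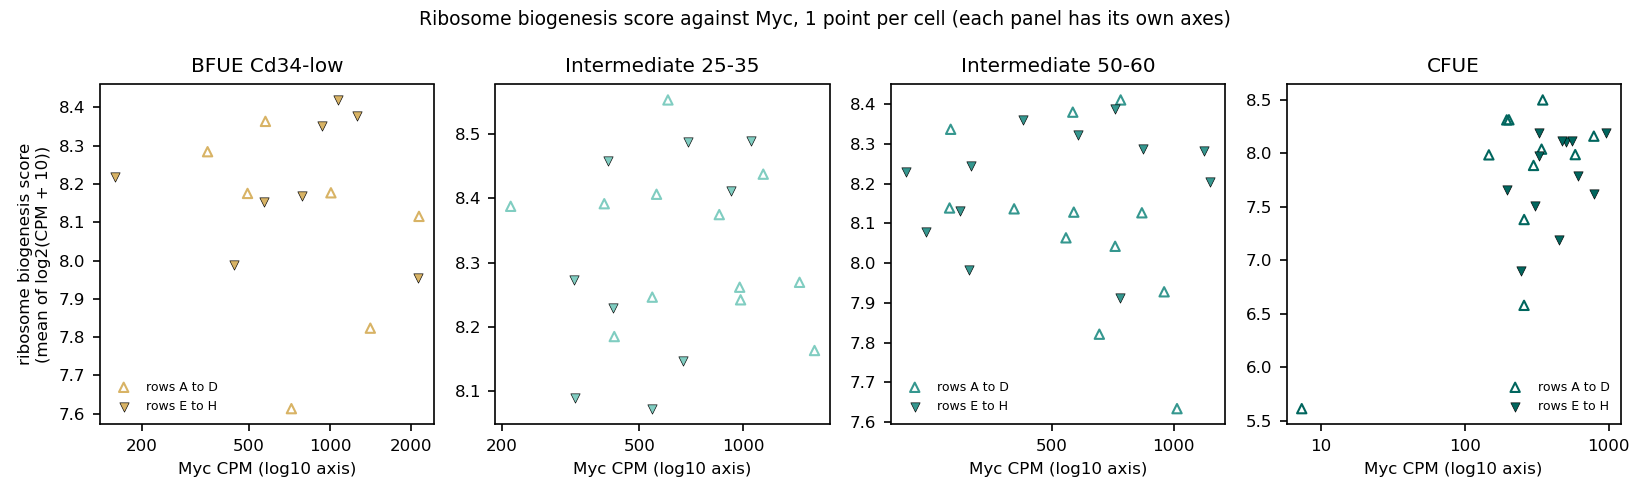
Ribosome biogenesis score (mean of log2(CPM + 10) over 32 genes) against Myc CPM (log10 axis) for each cell of the 4 gates, BFUE limited to its Cd34-low cells; open triangles are plate rows A to D and filled ones rows E to H. Points scatter without a common slope in the first 3 panels (rho -0.14, 0.13 and -0.11), and the cell at far left in the last panel is well D10.

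Among 3471 genes at 50 CPM or more in every gate, 55.3% had a mean rho with the score at or above that of Myc. The genes of the set themselves were nearer to it. Set against the score of the others, 31 of them had mean rhos between 0.10 (Ltv1) and 0.64 (Ncl), with a median of 0.30, where all genes had a median of 0.06, and 18 of the 31 lay above the 90th percentile of all genes (0.27). After Ncl came Nolc1 (0.58), Wdr43 (0.55), Wdr12 (0.54) and Nop16 (0.51), and at the low end stood Nop14 (0.18), Wdr75 (0.15) and Ltv1. These are means over gates that differed, and their CFUE part includes wells A10 and D10. Wdr75, for example, was at -0.27 in Intermediate_25-35 and 0.57 in CFUE. Nop58 was at 0.71 in Cd34-low BFUE cells and -0.10 in CFUE. With Myc, the same 31 genes had a median rho of 0.02 and 16 lay above 0, with Polr1b the highest at 0.30 and Npm1 the lowest at -0.17.

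The score of the other ribosome biogenesis genes followed that of the set in every gate, at rho 0.69, 0.77, 0.80 and 0.88 from Cd34-low BFUE cells to CFUE, and at a mean of 0.80 in the upper plate rows and 0.86 in the lower ones. Other growth genes linked to Myc had a mean of 0.63 (0.66 and 0.64 by plate rows). Ribosomal protein genes were at -0.28 (-0.39 and -0.17). Reads per cell were at 0.19 (0.27 and 0.01 by plate rows), genes detected at 0.28 (0.46 and 0.08) and the mitochondrial share at -0.19 (-0.20 and -0.26), and their part in these values was not tested. In CFUE the mitochondrial share was at -0.40, and at -0.21 without wells A10 and D10. Genes detected were at 0.27 in CFUE, at 0.17 without well D10 and at 0.04 without A10 and D10. Ribosomal protein genes were at -0.29 in CFUE and at -0.18 without well D10. Over the 4 gates the S phase score had a mean of -0.22 and the G2 and M phase score 0.20.

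Within CFUE the score was low where markers of red cell maturation were high. Against the erythroid marker score (10 genes such as Gata1, Klf1, Hba-a1, Slc4a1 and Tfrc) rho was -0.56 over 23 cells, -0.74 without well D10, -0.78 without A10 and D10, -0.53 in the upper plate rows and -0.63 in the lower ones. Tfrc encodes CD71, on which the cells were sorted. In the earlier gates it was 0.24 in Cd34-low BFUE cells, -0.21 in Intermediate_25-35 and -0.36 in Intermediate_50-60. The CFUE cell with the highest erythroid score (well F12, 9.45) had a ribosome biogenesis score of 7.19, and the one with the lowest (well C10, 6.42) had the highest ribosome biogenesis score of the gate, 8.50.

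**Figure D5:**
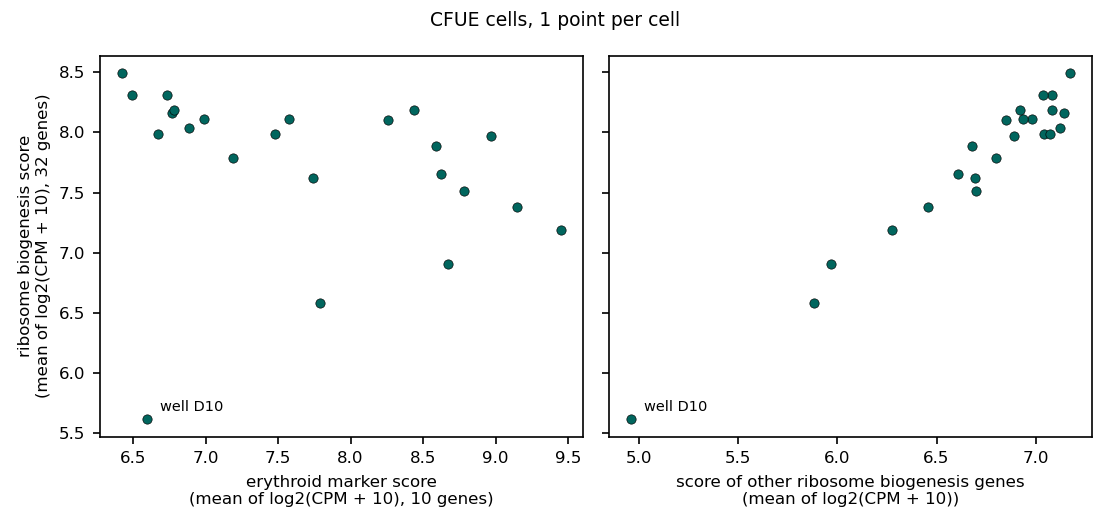
Ribosome biogenesis score (mean of log2(CPM + 10) over 32 genes) of the 23 CFUE cells against the erythroid marker score (left, 10 genes) and against the score of other ribosome biogenesis genes (right), each as mean of log2(CPM + 10). Cells run from upper left to lower right in the left panel (rho -0.56, and -0.74 without well D10 at lower left) and from lower left to upper right in the right one (rho 0.88).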

How the data were processed

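The deposited file holds whole-number counts per gene and cell, which the authors made without normalisation; reads were aligned with STAR 2.4 to GRCm38 and counted with featureCounts, per the submitters' processing notes. For featureCounts, its version, the annotation release and the strand setting were not given in the sources used here. Column names were matched to columns in order after dropping an extra empty cell of the first line. Coordinates are from GENCODE M21 (GRCm38), 1-based.

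Counts were summed over the kept wells of each gate and scaled to CPM. Ratios have exact conditional binomial (Clopper-Pearson) intervals at 95%. Since a gate is 1 sample, nothing was tested. Members and lists were chosen with earlier results of these data known. The genes to be named were all 33 members, and per other list the 2 highest and 2 lowest ratios of CFUE against Cd34-low BFUE cells at 20 CPM or more, plus the 10 genes outside the 33 nearest to the score, without predicted genes and pseudogenes. Thinned values used 500000 reads per well. Doublets were not called, since wells were sorted as 1 cell. The ratio and correlation code was tested on simulated data. Work was done in R 4.3.3 with edgeR 4.0.16 (TMM factors) and DESeq2 1.42.0 (size factors), and in Python 3.11.15 with pandas 2.3.3, numpy 2.4.6, matplotlib 3.10.9 and scipy 1.17.1.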

Additional observations from a re-analysis of the deposited data

How the results depend on the processing

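Counts of genes past 1.5-fold, the Myc ratio and the mean rho with Myc were recomputed with the mean of per-well CPM, TMM factors, size factors, other CPM minimums, thinned wells, globin, mitochondrial and ribosomal RNA genes out of the total, all wells, the upper (A to D) or lower (E to H) plate rows alone, and without the well with most reads of a gene; the rho also with a pseudocount of 1 CPM, Pearson's r, the median gene, scaled genes, and given depth or cell cycle scores. Leaving out CFUE replicate 10 (well D10), or wells A10 and D10, was chosen after seeing the data. Of 169 such values, 145 stayed close to the value reported and 24 moved, and the causes were not tested. Close meant within 1.5-fold for a count, inside the counting interval for the Myc ratio, and within the SD over gates (0.20) for rho. The CPM minimums cannot change a ratio, and using all wells adds few reads. For single-gene ratios (genes past 1.5-fold, and Myc elsewhere), 280 of 431 values stayed inside the counting interval and 151 moved outside it. No gene past 1.5-fold changed sign. The mean rho, 0.04 with all kept cells, was below 0 in 3 of 12 alternatives, namely in the upper rows, with the median gene (-0.03) and, at -0.0002, without A10 and D10. In CFUE against BFUE, 0 genes were higher with the mean of per-well CPM and in the lower rows, and 1 was lower with size factors and 2 in the upper rows. The log2 Myc ratio of CFUE against Cd34-low BFUE cells was -1.23 with the mean of per-well CPM, -1.06 with TMM factors and with size factors, -1.48 in the upper rows, -0.95 in the lower rows, -1.10 without the top wells, -1.13 without replicate 10 and -1.11 without A10 and D10. In the same comparison 1 gene was higher in the upper rows and 8 were lower in the lower rows. In Intermediate_25-35 against Cd34-low BFUE cells 1 gene was lower in the lower rows. In Intermediate_50-60 against Intermediate_25-35, 2 were lower in the upper rows, and 1 was higher and 2 lower in the lower rows. In CFUE against Intermediate_50-60, 7 were lower in the lower rows, 1 without replicate 10 and 0 without A10 and D10. In Cd34-high against Cd34-low BFUE cells 1 was higher in the lower rows. The mean rho of score and Myc was -0.23 in the upper rows and 0.34 in the lower rows. No paired analysis was possible because the well numbers repeat in accession order, mark no animal, and no test was made. Polr1a and Utp20 had 0 reads in 4 and 5 kept wells, and the part of depth in this was not tested.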

Other observations

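Outside the 33 genes, those whose levels followed the ribosome biogenesis score most closely within the gates were, among 3471 genes at 50 CPM or more in every gate, Slc19a1, Pum3, Srm, Smyd5, Ppid, Ruvbl2, Elavl1, Jagn1, Eif4e and Wdr3, with mean Spearman rhos between 0.50 and 0.61 over 83 cells. Of these 10 genes, 4 were in a list of the pathway or of growth genes linked to Myc. The rhos differed by gate. From Cd34-low BFUE cells to CFUE they were 0.83, 0.14, 0.39 and 0.69 for Elavl1, and 0.66, 0.75, 0.29 and 0.75 for Slc19a1. CFUE wells A10 and D10 are included, and values without them or by plate rows are not given. Slc19a1, the reduced folate carrier, was at 0.61, and from Cd34-low BFUE cells through the later gates at 274, 329, 264 and 183 CPM. Srm, spermidine synthase, was at 0.55 and at 1001, 1053, 869 and 721 CPM. Smyd5, a lysine methyltransferase, was at 0.54 and at 253, 254, 169 and 94.1 CPM. Elavl1, an RNA-binding protein, was at 0.51 with nearly the same level in every gate, between 349 and 373 CPM. Ppid, a cyclophilin, was at 0.53 and had its highest level, 509 CPM, in Intermediate_25-35. Ruvbl2, an ATPase that helps assemble box C/D particles, was at 0.52, and Eif4e, the cap-binding translation factor, at 0.50.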
